A study of Mus musculus with 9 samples.

Results

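The TALE homeobox genes of the Irx, Meis and Pbx families were followed across the otic vesicle (OV) and the remaining tissues of the mouse embryo at E10.5. Members were all probes listed under *Irx1* to *Irx6*, *Meis1*, *Meis2* or *Pbx3*. They came to 11 probes for 8 of the 9 symbols, among 25697 probes for 18120 symbols in the whole table. No probe is listed as *Meis2*, but 1 probe is listed under the older symbol *Mrg1*, and its deposited synonyms include *Meis2* (the name is also a synonym of *Cited2*, which has a row of its own). It was kept out of the counts of members and is described beside them.

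The study dissected CD-1 embryos at E10.5 and compared 3 tissues with 3 arrays each, with no treatment and no engineered allele named in the labels. These were pooled otic vesicles (OV), periotic tissue, which holds mesenchyme and hindbrain, and whole embryos without the greater otic region (embryo-minus-otic). Each array received RNA from a pool of dissected tissue, so a level is a mean over all cell types in the pool. Fewer expressing cells and less RNA per cell cannot be told apart.

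TALE proteins are transcription factors with an atypical homeodomain that carries a loop extension. Irx (Iroquois) factors act mainly in patterning, among others of the neural tube, placodes and heart, and their genes lie in clusters. In the RefSeq gene table *Irx1*, *Irx2* and *Irx4* follow each other on mouse chromosome 13, and *Irx3*, *Irx5* and *Irx6* on chromosome 8, with 0 other protein-coding genes inside either cluster. Meis and Pbx proteins bind each other and serve as DNA-binding partners of Hox proteins, for which the hindbrain is a classical site of action.

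Signals are log2 intensities after quantile normalization over the 9 arrays, and background was exceeded where the detection p of an array lay under 0.01. The differences between tissues come from 1 limma model of all 25697 probes, with *q* the p adjusted by Benjamini-Hochberg over all of them, called at *q* under 0.05. Of the 11 member probes, 7 exceeded background on every array of 1 or more tissues, as did 11849 probes of the whole table. These 7 were the probes of *Irx1*, *Irx3*, *Irx5* and *Meis1*, the brighter *Irx2* probe and the brighter pair of the 3 *Pbx3* probes. Letters name the probes of a gene from the brightest (A) down.

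The dissection was checked with marker genes. Of 13 probes for 8 otic epithelium genes, 10 were higher in OV than in each of the other tissues. For hindbrain and neural tube genes, 6 of 11 probes were lower in OV than in periotic tissue. Their summed signal over the 5 probes above background was 306 to 333 for OV, 2603 to 3041 for periotic tissue and 965 to 1155 for embryo-minus-otic. *Olig3* and *Neurog1* were each above background on 1 OV array and the other genes of this list on none, while the hindbrain Hox genes *Hoxa2* and *Hoxb2* were above it on all 3. For 10 mesenchyme and neural crest probes above background, the sums were 1401 to 1565 for OV, 1660 to 1930 for periotic tissue and 3072 to 3790 for embryo-minus-otic. All 7 probes for red blood cell genes were lower in OV than in either other tissue, with sums of 16368 to 40484 for OV, 64073 to 74556 for periotic tissue and 84714 to 91673 for embryo-minus-otic. The endothelial list gave 590 to 762 for OV, 859 to 1058 for periotic tissue and 988 to 1122 for embryo-minus-otic. Of 6 heart muscle genes, 4 (*Myl2*, *Myl3*, *Nppa* and *Tnni1*) were above background on all embryo-minus-otic arrays. Limb bud and foregut or liver genes also had their highest sums there. *Myl2*, *Myl3* and *Nppa* were each above background on 1 OV array and on no periotic tissue array. Their log2 signals were 7.53, 7.01 and 6.81 on OV replicate 1, and 5.59 to 5.93 on the other OV arrays.

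In brief, *Irx1* was higher in OV than in both other tissues and *Irx5* was highest in periotic tissue. *Irx2* and *Irx3* were higher in both OV and periotic tissue than in embryo-minus-otic. Of 19 alternative ways of processing, the *Irx5* call between OV and periotic tissue held in 11. The *Irx3* call between periotic tissue and embryo-minus-otic held in 14. *Meis1* was 3.76-fold to 4.64-fold lower in OV than in the other tissues, and the signal of the probe for *Meis2* was lower there by less. Neither *Pbx3* probe above background was called between OV and another tissue.

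The RefSeq promoter table (GRCm38.p6) holds 5 of the 9 symbols. The 4 windows below belong to genes that differed between OV and embryo-minus-otic, *Irx2* and *Irx3* being higher in OV and *Meis1* and *Meis2* lower. Each covers 300 bases around the gene start, 5′ to 3′ on the gene's strand, and capitals mark CG pairs. They lie at chr13:72628570-72628869, plus strand for *Irx2*, chr8:91801605-91801904, minus strand for *Irx3*, chr11:19018920-19019219, minus strand for *Meis1* and chr2:116064570-116064869, minus strand for *Meis2*.
Irx2: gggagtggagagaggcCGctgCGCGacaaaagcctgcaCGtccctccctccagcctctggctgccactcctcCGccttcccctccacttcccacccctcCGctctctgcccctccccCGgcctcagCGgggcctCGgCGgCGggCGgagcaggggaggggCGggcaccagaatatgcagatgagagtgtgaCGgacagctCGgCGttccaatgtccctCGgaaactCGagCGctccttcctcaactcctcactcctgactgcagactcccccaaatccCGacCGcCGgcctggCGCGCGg
Irx3: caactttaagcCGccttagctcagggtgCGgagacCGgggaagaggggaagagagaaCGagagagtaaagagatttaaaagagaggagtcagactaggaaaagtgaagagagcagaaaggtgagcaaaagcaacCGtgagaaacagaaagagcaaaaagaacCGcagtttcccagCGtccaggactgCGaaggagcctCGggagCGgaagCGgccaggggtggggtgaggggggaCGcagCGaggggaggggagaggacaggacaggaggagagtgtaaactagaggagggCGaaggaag
Meis1: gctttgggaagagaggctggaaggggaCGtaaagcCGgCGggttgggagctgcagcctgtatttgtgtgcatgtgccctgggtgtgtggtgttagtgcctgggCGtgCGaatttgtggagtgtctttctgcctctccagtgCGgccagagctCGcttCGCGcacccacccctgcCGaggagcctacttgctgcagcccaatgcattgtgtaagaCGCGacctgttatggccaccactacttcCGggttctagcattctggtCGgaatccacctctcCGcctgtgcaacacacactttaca
Meis2: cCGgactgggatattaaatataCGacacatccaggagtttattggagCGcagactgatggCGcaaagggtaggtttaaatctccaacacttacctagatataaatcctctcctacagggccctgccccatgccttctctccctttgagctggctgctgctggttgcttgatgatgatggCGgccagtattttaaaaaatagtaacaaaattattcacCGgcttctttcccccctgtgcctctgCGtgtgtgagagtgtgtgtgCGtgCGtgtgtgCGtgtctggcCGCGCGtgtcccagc

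The *Irx2* window holds 25 CG pairs, more than 81.6% of the 32851 windows in the table, whose median is 7. The windows of *Irx3*, *Meis1* and *Meis2* hold 14, 15 and 13. The hexamer TGACAG, a core known to be bound by Meis and Tgif proteins, was searched on both strands and is absent from the windows of all 5 genes (19.2% of all windows hold it). The composite TGATTNAT, a form of the Pbx and Hox site, is absent as well (3.22% of all windows hold it). These letters were sought in these windows only.

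*Irx1*, a patterning gene of the chromosome 13 cluster, was the member called higher in OV than in both other tissues. Its log2 signal was 7.68, 7.35 and 7.59 on the OV arrays, 6.48, 6.57 and 6.33 for periotic tissue and 6.23, 6.30 and 5.68 for embryo-minus-otic. All OV arrays lay above all others, and the third embryo-minus-otic array was not above background. OV exceeded periotic tissue by 1.08 log2 units (SE 0.14, 2.12-fold, *q* = 6.24e-05) and embryo-minus-otic by 1.47 (SE 0.14, 2.77-fold, *q* = 2.58e-06). Of all probes, 0.926% had a larger difference against periotic tissue and 0.362% against embryo-minus-otic. Every periotic tissue array was above every embryo-minus-otic array, with a difference of 0.39 that missed the threshold (*q* = 0.161). Correcting for an estimated background with limma's neqc raised the difference between OV and embryo-minus-otic to 2.29.

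*Irx2*, the neighbour of *Irx1* in the chromosome 13 cluster, was high in both OV and periotic tissue. Probe A gave 9.64, 10.09 and 9.72 in OV, 10.11, 10.14 and 9.93 for periotic tissue and 8.65, 8.67 and 8.52 for embryo-minus-otic. The embryo-minus-otic arrays lay below the other 6, which overlapped. OV was 2.30-fold above embryo-minus-otic (log2 1.203, SE 0.11, *q* = 1.95e-06). Periotic tissue was 2.72-fold above it (log2 1.44, SE 0.11, *q* = 6.29e-07), and 16 probes of the whole table had a larger difference in that comparison. The difference between OV and periotic tissue was -0.24 (*q* = 0.262), and it passed the threshold without OV replicate 2 (-0.38, *q* = 0.0372). *Irx2* probe B was not above background on any array and showed none of these differences, so the mean of both probes differed by 0.56 between OV and embryo-minus-otic and by 0.66 between periotic tissue and embryo-minus-otic.

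*Irx3*, a regulator of progenitor identity in the neural tube, was high in both OV and periotic tissue. Its log2 signal was 11.01, 11.28 and 11.37 in OV, 10.999, 11.16 and 10.79 for periotic tissue and 10.56, 10.20 and 10.52 for embryo-minus-otic. As for *Irx2*, OV and periotic tissue overlapped and lay above embryo-minus-otic. OV was 1.73-fold above embryo-minus-otic (log2 0.79, SE 0.12, *q* = 3.78e-04) and periotic tissue 1.47-fold above it (log2 0.56, SE 0.12, *q* = 0.0131). The second call was lost on leaving out periotic tissue replicate 1 (*q* = 0.0550) or 2 (*q* = 0.0796) and without embryo-minus-otic replicate 2 (*q* = 0.0546), and under neqc (*q* = 0.0546). Between OV and periotic tissue the difference was 0.23 (*q* = 0.349).

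*Irx5*, which lies beside *Irx3* in the chromosome 8 cluster, was highest in periotic tissue. It gave 9.48, 9.77 and 9.45 in OV, 10.06, 10.08 and 10.03 for periotic tissue and 9.04, 9.55 and 9.06 for embryo-minus-otic. Periotic tissue lay above all other arrays, and the other tissues overlapped through embryo-minus-otic replicate 2. Periotic tissue was 1.79-fold above embryo-minus-otic (log2 0.84, SE 0.13, *q* = 5.19e-04). OV was 1.41-fold below periotic tissue (log2 -0.49, SE 0.13, *q* = 0.0193). That call was lost without OV replicate 1 (*q* = 0.0803), OV replicate 3 (*q* = 0.0917), periotic tissue replicate 1 (*q* = 0.0675) or periotic tissue replicate 2 (*q* = 0.0644), with differences from -0.49 to -0.44, and under neqc (*q* = 0.0688), median normalization (*q* = 0.263) or none (*q* = 0.0627). OV against embryo-minus-otic gave 0.35 (*q* = 0.105), and without embryo-minus-otic replicate 2 it gave 0.52 (*q* = 0.0043). In periotic tissue 5 of 11 hindbrain probes were higher and 9 of 12 mesenchyme probes lower than in embryo-minus-otic, and their part in the *Irx2*, *Irx3* and *Irx5* results was not tested.

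**Figure D1:**
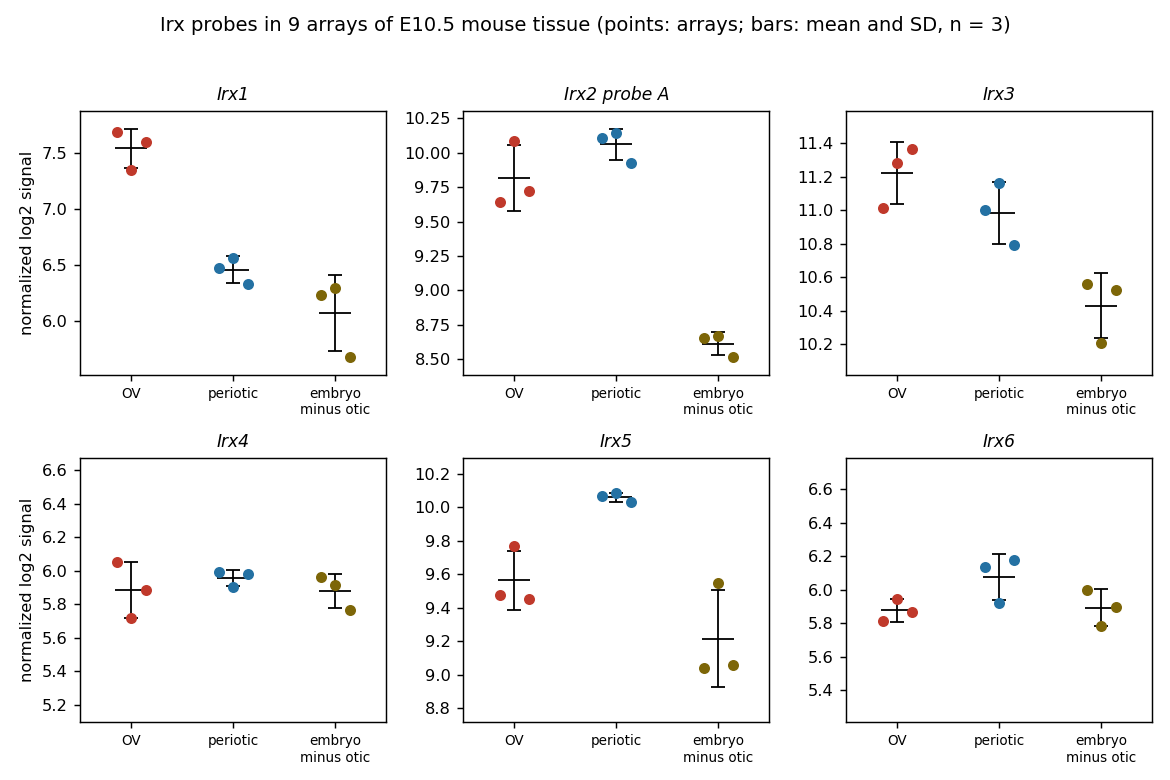
Normalized log2 signal (vertical axes, each panel on its own range) of 6 Irx probes on the 3 arrays of each tissue. Points are arrays and bars the mean and SD. *Irx1* is highest in OV, *Irx2* and *Irx3* are lowest in embryo-minus-otic, *Irx5* is highest in periotic tissue, and the *Irx4* and *Irx6* probes stay near 6 in all tissues.

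*Irx4*, a marker of ventricular heart muscle, was not above background on any array, although the embryo-minus-otic pools held heart RNA by *Myl2*, *Myl3* and *Nppa*. The *Irx6* probe was above background on 1 array, of periotic tissue. Means for these probes lay between 5.88 and 6.08 in all tissues. A difference below background was not detectable, and a detection p under 0.05 added 1 array for each. Each cluster thus had 1 gene not called in any comparison, and for the *Irx3* and *Irx6* probes the deposited rows name no transcript or chromosome.

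Whether neighbours in a cluster changed alike was tested on the log2 difference between their probes within each array, by exact permutation of the 9 arrays among the tissues, which has 280 distinct outcomes (3 pairs compared, smallest p = 0.0036). For *Irx1* and *Irx2*, the change from periotic tissue to OV differed by 1.33 log2 units and that from embryo-minus-otic to OV by 0.27 (exact permutation test of any difference between tissues, p = 0.0143, 0.0214 adjusted over the 3 pairs). The second value depends on the scale, and the *Irx1* probe lay near background in embryo-minus-otic. It was 0.996 under neqc and 0.10 without normalization, alternatives chosen after seeing the data, with adjusted exact permutation p of 0.0107 and 0.0429. For *Irx3* and *Irx5* these values were 0.73 and 0.44 (exact permutation p = 0.10, adjusted 0.10), and the within-array difference had an SD of 0.48 in embryo-minus-otic. The third pair, *Meis1* and *Mrg1*, is given below. These tests compare probe signals, and probes of different genes can differ in response. Genes near the clusters were also listed. Of 7 probes for 4 genes around the chromosome 8 cluster, 1 was called between periotic tissue and OV, for *Mmp2*, a matrix metalloproteinase (OV lower, log2 -0.44, *q* = 0.0127). The same probe was the 1 called between embryo-minus-otic and OV (OV lower, log2 -0.81, limma *q* = 7.46e-05). None of the 7 was called between periotic tissue and embryo-minus-otic, where the limma *q* of *Mmp2* was 0.0667 (unadjusted p under 0.05 for that 1 probe) and the next lowest, of *Rbl2*, was 0.622. *Fto*, next to *Irx3*, was above background on all arrays and not called in any comparison. Of 6 probes for 6 genes near the chromosome 13 cluster, 1 was called between OV and periotic tissue, for *Ndufs6*, a subunit of respiratory complex I (OV higher, log2 0.45, *q* = 0.0406). Against embryo-minus-otic 2 of the 6 were higher in OV, *Ndufs6* (log2 0.43) and the cotransporter gene *Slc12a7* (log2 0.48), and 1 was lower. *Nkd2*, an inhibitor of Wnt signalling, was lower in OV and periotic tissue than in embryo-minus-otic (log2 -0.96 in OV and -0.80 in periotic tissue). In the RefSeq gene table *Ndufs6* was among the nearest protein-coding genes of that cluster, and *Slc12a7* and *Nkd2* were not.

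*Meis1*, a Hox and Pbx partner also known from blood stem cells, was the member that differed most. Its log2 signal was 8.79, 8.69 and 8.40 in OV, 10.70, 10.80 and 11.02 for periotic tissue and 10.45, 10.68 and 10.48 for embryo-minus-otic. All OV arrays lay far below the other 6, yet the probe was above background on all of them. OV was 4.64-fold below periotic tissue (log2 -2.22, SE 0.12, *q* = 1.84e-09) and 3.76-fold below embryo-minus-otic (log2 -1.91, SE 0.12, *q* = 1.20e-08). Among all probes, 49 had a lower difference against periotic tissue and 75 against embryo-minus-otic. Periotic tissue exceeded embryo-minus-otic by 0.30 (*q* = 0.177) with no overlap between their arrays. In the same comparison with periotic tissue, 6 of 11 hindbrain, 3 of 12 mesenchyme, 7 of 7 red blood cell and 2 of 6 endothelial probes were lower in OV, and against embryo-minus-otic 4, 10, 7 and 2 were. Their part in this result was not tested. The deposited row of this probe names no transcript.

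The probe listed as *Mrg1*, on chromosome 2, stands for *Meis2*, a paralogue of *Meis1*. It gave 10.31, 10.21 and 10.14 in OV, 10.88, 11.08 and 11.37 for periotic tissue and 10.77, 11.19 and 10.90 for embryo-minus-otic. OV was again the lowest tissue on every array, 1.86-fold below periotic tissue (log2 -0.89, SE 0.13, *q* = 1.31e-04) and 1.66-fold below embryo-minus-otic (log2 -0.73, SE 0.13, *q* = 8.74e-04). With median normalization the second difference was -0.56 and was not called (*q* = 0.249). The *Meis1* probe changed more than the *Mrg1* probe, by a further -1.32 log2 units against periotic tissue and -1.18 against embryo-minus-otic (exact permutation test, p = 0.0071, 0.0214 adjusted over the 3 pairs). The study states that probes differ greatly in sensitivity and dynamic range, so this compares probe signals and not amounts of transcript.

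The symbol *Mrg2* is a synonym of both *Meis3* and *Cited4*, and its probes, on chromosome 7, were taken here as *Meis3*. Probe A was dim, above background on 2 OV arrays and on all others. Its values were 6.43, 6.28 and 6.17 in OV, 6.96, 6.83 and 6.49 for periotic tissue and 6.21, 6.58 and 6.52 for embryo-minus-otic. OV lay below periotic tissue on all arrays (log2 -0.47, SE 0.13, *q* = 0.0288) and overlapped embryo-minus-otic (log2 -0.14, *q* = 0.625). Between periotic tissue and embryo-minus-otic it gave 0.32 (*q* = 0.201), and 0.45 without periotic tissue replicate 3 (*q* = 0.0462). The OV call held in 10 of the 19 alternatives. It was lost without OV replicate 2 or 3 or periotic tissue replicate 1 or 2, where *q* ran from 0.0916 to 0.161. Under neqc the difference was -0.82 (*q* = 0.0700). Median normalization (*q* = 0.0781), no normalization (*q* = 0.126) and limma's treat at 1.2-fold (*q* = 0.895) lost it too. So did the mean over the gene's probes (log2 -0.32, limma *q* = 0.0650). Probe B of *Mrg2* was above background on 2 periotic tissue arrays and on none of the other tissues.

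**Figure D2:**
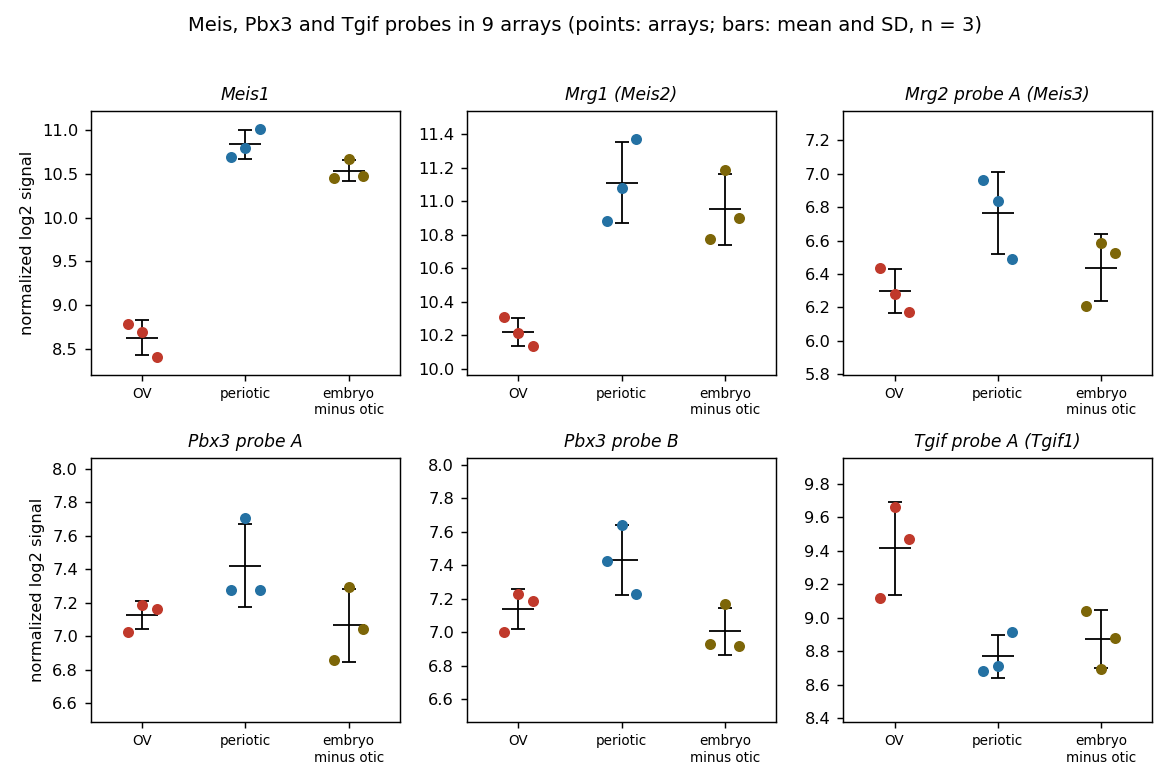
Normalized log2 signal (vertical axes, each panel on its own range) of the *Meis1*, *Mrg1* (*Meis2*), *Mrg2* (*Meis3*), *Pbx3* and *Tgif* (*Tgif1*) probes on the 3 arrays of each tissue. Points are arrays and bars the mean and SD. The 3 OV arrays lie below all others for *Meis1* and *Mrg1* and above all others for *Tgif*, while the *Pbx3* panels show their highest mean in periotic tissue.

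*Pbx3*, needed for breathing control by the hindbrain, had 2 probes above background. Probe A gave 7.03, 7.18 and 7.16 in OV, 7.28, 7.71 and 7.28 for periotic tissue and 6.86, 7.30 and 7.04 for embryo-minus-otic. Probe B gave 7.01, 7.23 and 7.19 in OV, 7.43, 7.64 and 7.23 for periotic tissue and 6.93, 7.17 and 6.92 for embryo-minus-otic. Periotic tissue had the highest mean on both, and the OV arrays lay just below its arrays, which overlapped embryo-minus-otic on probe A. Probe B was 1.34-fold higher in periotic tissue than in embryo-minus-otic (log2 0.43, SE 0.11, *q* = 0.0377), and probe A gave 0.35 (SE 0.13, *q* = 0.149). The call for probe B was lost without OV replicate 2, periotic tissue replicate 1 or 2, or embryo-minus-otic replicate 1 or 3 (*q* from 0.0538 to 0.196) and under neqc, median or no normalization (*q* from 0.0598 to 0.432), and probe A was called without embryo-minus-otic replicate 2 (*q* = 0.0475). OV did not pass the threshold against periotic tissue on either probe (log2 -0.30, *q* = 0.211, and log2 -0.29, *q* = 0.148), nor against embryo-minus-otic (log2 0.06 and 0.13). *Pbx3* probe C was not above background on any array.

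Counted over the 11 member probes, 1 was higher and 2 were lower in OV than in periotic tissue, where 5.07% and 5.15% of all probes were called. Against embryo-minus-otic, 3 were higher and 1 was lower in OV (5.89% and 5.51% of all probes). In periotic tissue 4 were higher than in embryo-minus-otic and 0 were lower (2.86% and 2.95% of all probes). Among all probes above background in a tissue, the shares were 10.4% and 10.6% in the comparison of OV with periotic tissue, 12.1% and 11.1% in that with embryo-minus-otic, and 6.08% and 6.05% between the latter tissues. The count of 4 became 2 when either periotic tissue replicate 1 or 2 was left out, where *Irx2* and *Irx5* kept their calls. The count of 2 lower in OV became 1, *Meis1*, without OV replicate 1 or 3 or periotic tissue replicate 1 or 2, and 3, with *Irx2*, without OV replicate 2. The comparisons share arrays. The median difference of the member probes was -0.20 for OV against periotic tissue, 0.06 for OV against embryo-minus-otic and 0.35 for periotic tissue against embryo-minus-otic, beside medians of -3.71e-05, 0.0043 and 0.0066 over all probes. The median of -0.20 is the value of the *Irx6* probe, which was above background on 1 array and not called (limma *q* = 0.273).

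**Figure D3:**
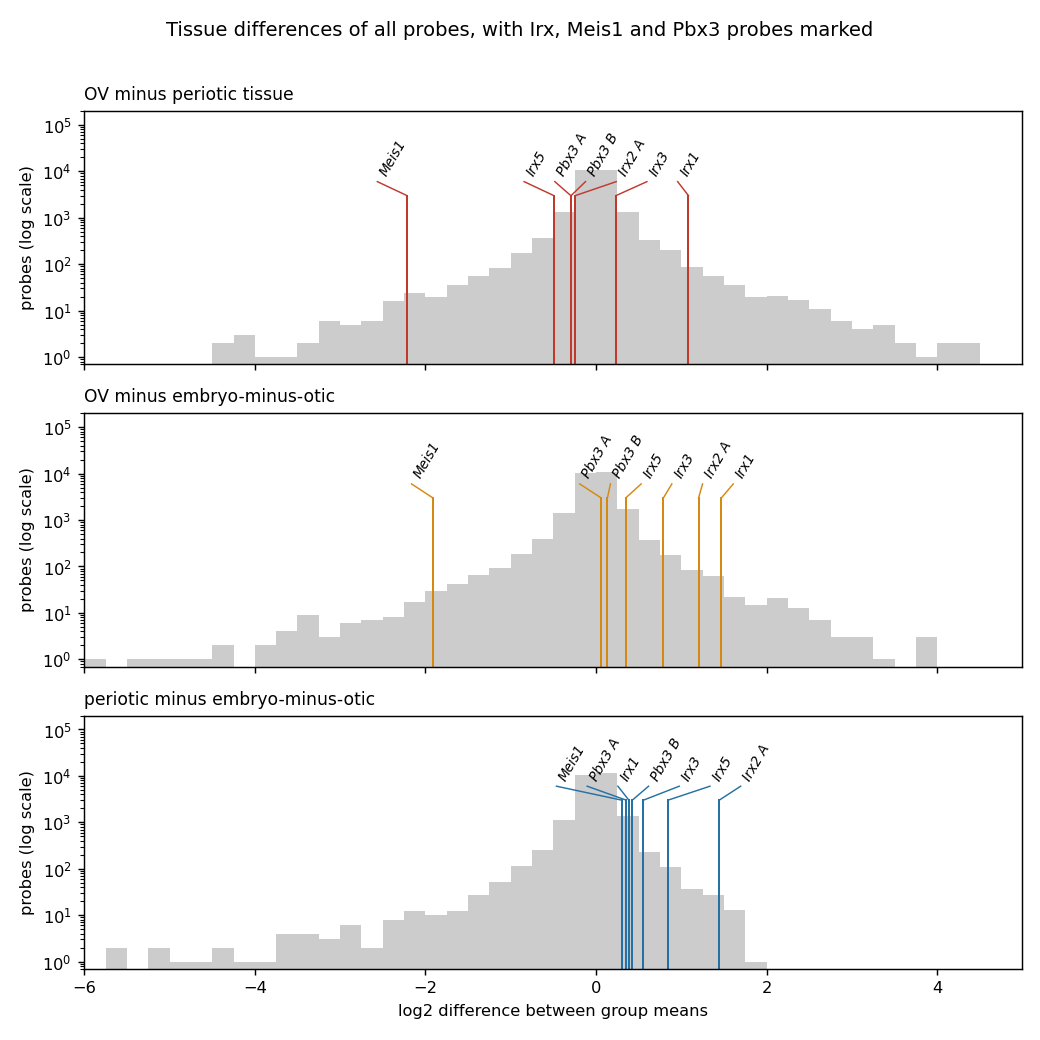
Number of probes (vertical axes, log scale) by log2 difference between tissue means (horizontal axis) for all 25697 probes, with the 7 member probes above background marked by lines. Against embryo-minus-otic, *Irx1* lies at 1.47 and *Irx2* probe A at 1.203 in OV, *Irx2* probe A lies at 1.44 in periotic tissue, and *Meis1* lies at -2.22 and -1.91 in the OV comparisons.

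The other TALE genes, with *Mrg1* and *Mrg2* and the Pbx-binding protein *Pbxip1* among them, had 24 probes, of which 16 were above background on all arrays of a tissue. In OV against periotic tissue 2 were higher and 3 lower, in OV against embryo-minus-otic 2 were higher and 1 lower, and between periotic tissue and embryo-minus-otic 0 were called by limma. Without adjustment, a p under 0.05 was reached by 3 of the 24 in the last comparison. Besides the *Meis* paralogues, the calls belonged to *Tgif* (*Tgif1*), a repressor of TGF-β and Smad signalling, and to *Pknox2* probe E, which was not above background on any array.

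*Tgif* probe A gave 9.12, 9.66 and 9.47 in OV, 8.68, 8.71 and 8.91 for periotic tissue and 9.04, 8.70 and 8.88 for embryo-minus-otic. OV lay above both other tissues on all arrays, 1.56-fold over periotic tissue (log2 0.64, SE 0.13, *q* = 0.0033) and 1.46-fold over embryo-minus-otic (log2 0.54, SE 0.13, *q* = 0.0114). Probe B had the same direction, with differences of 0.43 (*q* = 0.0042) and 0.31 (*q* = 0.0368). Against embryo-minus-otic the call of probe A was lost without OV replicate 2 (*q* = 0.0715) and embryo-minus-otic replicate 2 (*q* = 0.0505), and that of probe B without OV replicate 2 or 3 or any 1 embryo-minus-otic array (*q* from 0.0526 to 0.144) or with median or no normalization (*q* = 0.0737 and 0.869). *Tgif2*, its paralogue, was at 7.20 ± 0.0344 (SD, n = 3) for OV, 6.91 ± 0.13 for periotic tissue and 6.88 ± 0.17 for embryo-minus-otic, without a call (limma *q* = 0.0988 and 0.0563).

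*Pbx2*, which encodes a partner of Meis proteins, and *Pknox1*, whose product binds Pbx proteins as Meis proteins do, were not called. The brightest *Pbx2* probe was at 8.89 ± 0.0627 (SD, n = 3) for OV, 8.89 ± 0.0378 for periotic tissue and 8.97 ± 0.0815 for embryo-minus-otic. The *Pknox1* probes differed by -0.12 to 0.04 log2 units over the 3 comparisons. *Pknox2* probe A (log2 -0.35 for OV against periotic tissue, *q* = 0.168), *Pbx4*, *Pbxip1* and the *Mkx* probe, listed as 9430023B20Rik, were not called either, nor was *Tgif* probe C, above background in OV only (log2 0.28 against periotic tissue, *q* = 0.0669).

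**Figure D4:**
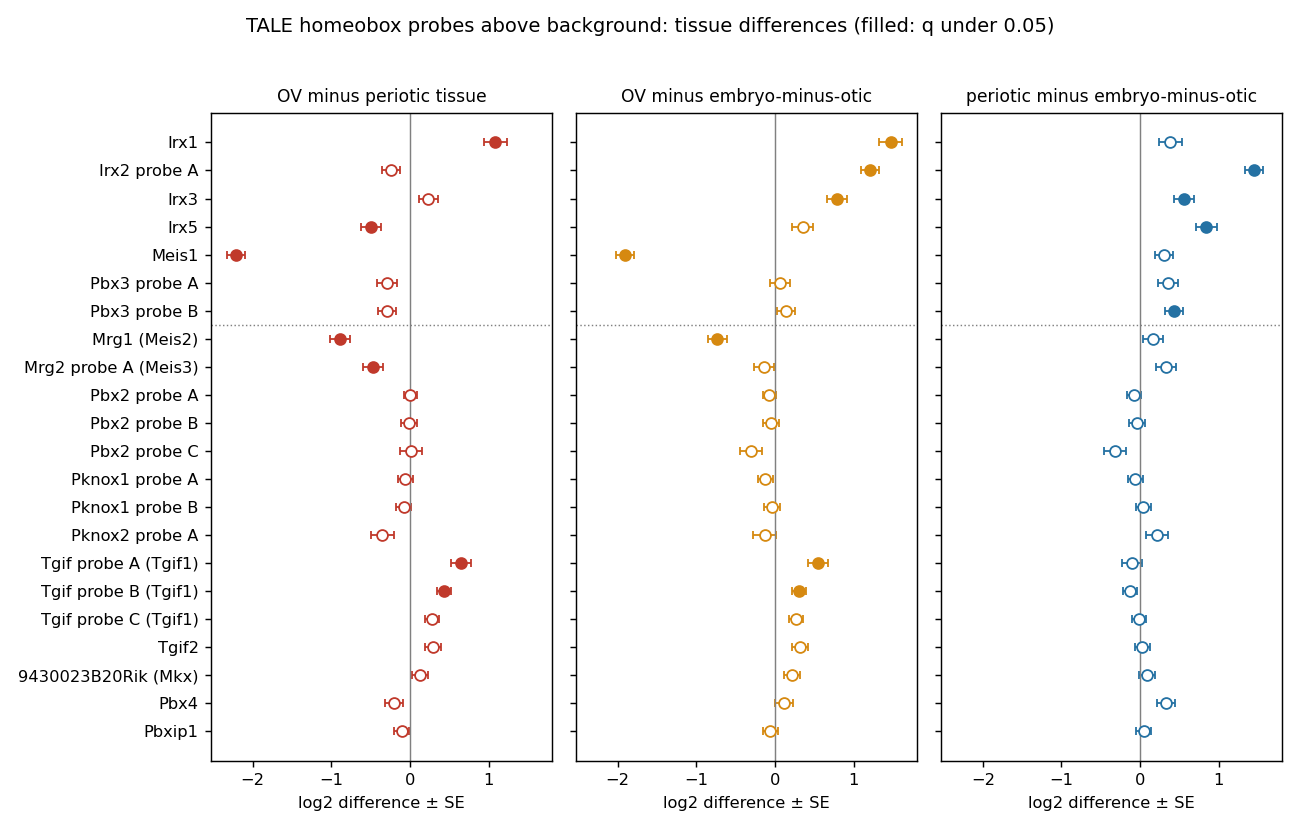
Log2 differences between tissues (horizontal axes) with their standard errors for the 7 member probes above background (over the dotted line) and further TALE or *Pbxip1* probes. Filled points passed *q* under 0.05. *Meis1* and *Mrg1* lie left of 0 in both OV comparisons, *Tgif* right of 0, and *Pbx2* probes A and B and both *Pknox1* probes close to 0.

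Hox proteins of the anterior paralogue groups are partners of Meis and Pbx. Of 18 probes for 12 such genes, 11 were lower in OV than in periotic tissue and 11 were lower than in embryo-minus-otic. *Hoxb2*, above background on all arrays, differed by -3.44 against periotic tissue (SE 0.14, *q* = 1.06e-10) and by -1.75 against embryo-minus-otic (SE 0.14, *q* = 2.17e-07). In periotic tissue 5 of the 18 were higher and 4 lower than in embryo-minus-otic.

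The probes with profiles most like each member over the 9 arrays were sought among probes above background. Likeness was the root mean square difference between profiles after each was centred on its mean, given as a description since arrays of 1 tissue form a cluster. For *Irx1* the nearest was AI591476 (0.14 log2 units). For *Irx2* it was *Insm1*, a zinc finger factor of neuroendocrine and neuronal precursors (0.18), with differences of 1.43 for OV and 1.42 for periotic tissue over embryo-minus-otic. For *Irx3* they were *Akap9* (0.11) and *Acot7* (0.12), and for *Irx5* 1500031H04Rik (0.13) and the Wnt receptor *Fzd3* (0.16). *Meis1* was closest to *Tcfap2b*, an AP-2 factor of neural crest (0.15), and to *Neurog2*, a proneural factor (0.19), whose differences between OV and periotic tissue were -2.31 and -2.25. *Pbx3* was closest to *Btg1* (0.071) and *Hnrph1* (0.077), whose own differences ran from -0.36 to 0.32.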

How the data were processed

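RNA from 9 tissue pools, 3 per tissue, was hybridized to Illumina MouseRef-8 arrays. By the study's methods, 3 litters were dissected and divided into pools of all 3 tissues, so the tissues share litters. The deposited table holds the average signal intensity of each probe from GenomeStudio, not normalized between arrays, and a detection p-value against the negative controls of the same array, both made by the authors. Whether a background had been subtracted is not stated, but the lowest signal of all was 32.8 and no signal was negative. Array medians ran from 59.1 to 85.8, and 43.9% to 47.3% of probes were above background. The number of arrays limits the precision.

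The log2 of each signal was taken, followed by quantile normalization over the 9 arrays. A model with 3 tissue means was fitted to all 25697 probes with limma 3.58.1 (lmFit and eBayes) in R 4.3.3, with Benjamini-Hochberg adjustment over all probes within each comparison, and the code was tested on simulated data. The labels do not tie replicate numbers to litters, and the slide of each array is not given in the sources used here. Members, gene lists and tests were chosen with earlier results of these data known. Named genes were all members, other TALE genes called in any comparison, called genes near the Irx clusters and the probes nearest in profile. The *Hox* probes, *Fto* and the uncalled TALE probes were named after their values were seen. Alternatives were neqc, median or no normalization, a filter on dim probes, fits of 2 tissues, a replicate block, an intensity trend, array weights, treat at 1.2-fold, the mean over a gene's probes and leaving out each array. Some genes of the lists count in the totals and are not reported here by name.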

Additional observations from a re-analysis of the deposited data

How the results depend on the processing

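Over the 19 alternatives, the limma calls of *Irx1*, *Irx2* probe A and *Meis1* held in each comparison where they were called. Of the named log2 differences, 292 recomputed values of called differences stayed called, 50 lost the call and 0 reversed, and of the uncalled ones 274 stayed uncalled, 7 became called and 4 reversed. Those 4 were *Pbx3* probe A for OV against embryo-minus-otic (-0.011 without normalization between arrays and from -0.045 without embryo-minus-otic replicate 1 to 0.17 without embryo-minus-otic replicate 2) and *Tgif* probe A for periotic tissue against embryo-minus-otic (0.14 with median normalization, 0.0093 without normalization). Member probes lower in OV than in periotic tissue, 2 in the reported fit, came to 1 under neqc, median normalization, no normalization and treat, and to 1 to 3 with 1 array left out. Member probes higher in periotic tissue than in embryo-minus-otic, 4 in the reported fit, came to 2 under neqc and treat, and to 2 to 4 with 1 array left out. The cause was not tested.

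Same-numbered arrays of different tissues had deviations that correlated by 0.0108 to 0.234, and differently numbered arrays by -0.19 to 0.064. The same-number values were not above 0.1 for every pair, while 6 of 9 arrays matched their own number best in both other tissues. The labels do not tie the numbers to litters, so the reported fit did not take them as pairs. Whether they mark litters was not tested. With the replicate block, 4 member probes were higher in OV than in embryo-minus-otic (*Irx5* added, *q* = 0.0343) and 5 were higher in periotic tissue (*Pbx3* probe A added, *q* = 0.0401), while 1 was higher and 2 were lower in OV than in periotic tissue.

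Over all probes, OV against embryo-minus-otic gave 1513 higher and 1417 lower, and 1472 and 670 with median normalization. Periotic tissue against embryo-minus-otic gave 736 and 757, and 812 and 315 with median normalization. Without normalization the counts were 620 and 761 for OV against periotic tissue (1302 and 1323 in the reported fit, 814 and 870 with median normalization), 588 and 795 for OV against embryo-minus-otic, and 325 and 371 for the remaining comparison. At a detection p under 0.05, *Irx2* probe B was above background on 7 arrays, *Irx6* on 2, and *Irx4* and *Pbx3* probe C on 1 each. Dim probes near background have compressed differences.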
